A study of Mus musculus with 35 samples.

Results

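CXCR6pos CD8 T cells of the liver were compared with CXCR6neg CD8 T cells of the liver in mice on the diet labelled CD-HFD, across all genes. The comparison rests on 11 libraries, 5 of CXCR6pos and 6 of CXCR6neg, out of 35 labelled samples, and takes its members from their labels alone. All groups came from C57BL/6 mice aged 13 months: besides these, liver CXCR6pos (6 libraries) and CXCR6neg (4) on the diet labelled ND, and spleen cells negative for the receptor CX3CR1 on CD-HFD (6) and on ND (5). Cells went straight into lysis buffer at sorting, and their polyadenylated RNA was read from the 3′ end in bulk. The labels give no gate beyond CD8 and the chemokine receptor, and name no animal for a replicate. The p-values therefore weigh differences against the spread between libraries, part of which may be technical. Total counts ran from 57168 to 369055 (median 182006) in CXCR6pos and from 84808 to 355845 (median 249030) in CXCR6neg. Levels are CPM, counts set relative to library size and scaled by the trimmed mean of M-values (TMM), and log2 fold changes are CXCR6pos over CXCR6neg with their standard error (SE).

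CXCR6 is a chemokine receptor carried by CD8 T cells that stay in the liver, where its ligand CXCL16 is displayed by the vascular lining. Resident T cells lose the receptors by which naive and recirculating T cells enter lymph nodes and leave tissue, and T cells under lasting stimulation gain inhibitory receptors such as PD-1. Plasmacytoid dendritic cells (pDCs) are interferon-producing cells of a lineage apart from T cells, governed by the E protein TCF4 (E2-2), and in the mouse some of them carry CD8 alpha on their surface. B cells make immunoglobulin and, with dendritic cells, display peptides on MHC class II. Several genes, among them Ly6c2, Ccr9 and Plac8, are used by pDCs as well as by naive or memory T cells, so that a gene list alone does not assign a transcript to a cell.

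CXCR6pos cells had higher levels of inhibitory receptors, cytotoxic molecules, chemokines and the factors of exhausted and resident T cells, and lower levels of genes of naive and recirculating T cells. They also had far fewer transcripts of pDC genes and of MHC class II. Of 6174 genes tested, 294 were higher (4.76% of all tested) and 394 lower (6.38%), 11.1% in both directions together, at an adjusted p under 0.05. Changes of at least 2-fold made up 113 of the higher and 185 of the lower genes. In 423 genes (6.85%) the libraries of the fractions did not overlap, among them 146 of the higher and 218 of the lower genes. The median log2 fold change over all tested genes was 0.00. The sorted marker Cxcr6 was at 573, 601, 803, 776 and 867 CPM in the CXCR6pos libraries, against 52.9 to 124 CPM (median 79.5) in CXCR6neg, a check of the labels and not a result.

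Libraries that stand apart bear on what follows. In the library labelled ND CXCR6pos replicate 6, pDC core genes summed to 362 CPM and MHC class II genes to 1940 CPM, while the other 5 ND CXCR6pos libraries held 0 to 45.0 CPM and 294 to 443 CPM. Both sums lie within the range of the ND CXCR6neg libraries (190 to 468 CPM and 905 to 2115 CPM). Its Cxcr6 level, 201 CPM, is below those of the other ND CXCR6pos libraries (295 to 812 CPM) and within the range of ND CXCR6neg (40.0 to 450.04 CPM), so the library goes against its label. It is in no group of the CD-HFD comparison, but it enters the contrast under ND and the slopes used to tell genes of other cells apart. Counts of genes passing, and medians of the higher and lower genes, are given with and without it. Values of single genes that depend on it are with it unless stated. ND CXCR6pos replicate 1 is the shallowest of the 32 libraries, with 15633 counts. ND CXCR6neg replicate 4 had the highest Cxcr6 level of its group, 450.04 CPM, against 40.0 to 227 CPM in the others. Its pDC core sum, 190 CPM, was the lowest of that group. Diet differences are therefore also given without it and ND CXCR6pos replicate 6. Replicate 1 of ND liver CXCR6neg was identical in every gene to replicate 6 of the ND spleen, under labels of different groups, so neither was used.

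The pDC transcripts were concentrated in the CXCR6neg fraction. A core list of 5 pDC genes (Siglech, Klk1, Cox6a2, Smim5 and Pacsin1) summed to 17.7 to 56.0 CPM (median 29.5) in CXCR6pos libraries and 348 to 507 CPM (median 449) in CXCR6neg libraries. The groups did not overlap, and 4 of the 5 genes were lower in CXCR6pos. Without Pacsin1, the other 4 genes had 6 counts in all 5 CXCR6pos libraries together, against 526 counts in the 6 CXCR6neg libraries. In bulk RNA, fewer cells of a type and less of its RNA per cell cannot be told apart.

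Siglech (chromosome 7, 55768178 to 55778925, plus strand, GRCm38, a protein-coding gene) codes for the sialic acid-binding receptor that marks mouse pDCs. It had 2 counts in CXCR6pos and 230 in CXCR6neg, 90.6-fold lower in CXCR6pos (95% counting interval 24.8 to 753), with adjusted p = 0.00012. The counts of CXCR6pos came from 1 library, replicate 3. Klk1, which codes for a kallikrein protease, had 1 count in CXCR6pos and 95 in CXCR6neg, 74.8-fold lower in CXCR6pos (95% counting interval 13.1 to 2987). Cox6a2, a cytochrome c oxidase subunit found in muscle and pDCs, had 3 counts in CXCR6pos and 151 in CXCR6neg, 39.7-fold lower in CXCR6pos (95% counting interval 13.3 to 194). Smim5, a small membrane protein gene, had no count in CXCR6pos and 50 in CXCR6neg, and was at least 13.1-fold lower in CXCR6pos (bound from 3 counts over the group). Pacsin1, a gene of endocytic membrane trafficking, differed from the other 4: it was at 23.6, 33.8, 43.6, 20.2 and 17.7 CPM in the CXCR6pos libraries, against 12.1 to 57.1 CPM (median 42.6) in CXCR6neg, groups that overlapped, and did not pass (adjusted p = 0.567).

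The wider list of pDC genes followed the same direction. Of 33 tested genes on it 25 were lower and 1, Cd8a, was higher, with a median log2 fold change of -2.99 against 0.00 for all genes. Tcf4, the master regulator of the lineage, was at 11.8, 3.38, 6.22, 0 and 0 CPM in the CXCR6pos libraries, against 35.2 to 44.3 CPM (median 39.7) in CXCR6neg, a log2 fold change of -3.24 ± 0.70 (SE, adjusted p = 0.000315). Spib, an ETS factor that works with it, had no count in CXCR6pos and 51 in CXCR6neg, and was at least 13.4-fold lower in CXCR6pos. Ccr9, the receptor for the gut chemokine CCL25 and a pDC and thymocyte gene, had no count and 72, and was at least 18.9-fold lower in CXCR6pos.

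Other genes of the myeloid and dendritic machinery were lower too, without overlap between the groups. Irf8, the interferon regulatory factor needed by dendritic cells, was at 65, 67.5, 118, 80.8 and 53.1 CPM in the CXCR6pos libraries, against 247 to 386 CPM (median 305) in CXCR6neg. Tyrobp, the adaptor DAP12 that signals for Siglec-H, was at 11.8, 6.75, 24.9, 11.5 and 88.4 CPM in the CXCR6pos libraries, against 302 to 438 CPM (median 379.6) in CXCR6neg. Ly6d, a surface protein of early B cells and pDCs, was at 11.8, 6.75, 0, 5.77 and 35.4 CPM in the CXCR6pos libraries, against 163 to 310.4 CPM (median 218) in CXCR6neg. Their log2 fold changes were -1.94 ± 0.48, -4.45 ± 0.65 and -4.77 ± 0.90. The lysosomal genes Ctsh (a cathepsin), Pld4 (an endolysosomal nuclease), Rnase6 and Grn (progranulin) fell as well, Ctsh with 1 count in CXCR6pos and 136 in CXCR6neg and the others with log2 fold changes of -4.81 ± 1.00, -4.29 ± 0.94 and -2.24 ± 0.29.

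The promoters of some of these genes are shown because TCF4 and other E proteins bind the E-box, and the genes moved together. Each window is the 200 bases before the start site in RefSeq on GRCm38.p6, with E-boxes (CANNTG, where N is any base and the reverse complement has the same form, searched on both strands) in capitals. The windows are chr7:55767984-55768183 (plus strand) for Siglech, chr7:44225160-44225359 (plus strand) for Klk1, chr9:123767011-123767210 (plus strand) for Ccr9, chr7:44532072-44532271 (minus strand) for Spib, and, for comparison from the genes higher in CXCR6pos, chr9:123806277-123806476 (plus strand) for Cxcr6 and chr1:94052554-94052753 (minus strand) for Pdcd1.
Siglech: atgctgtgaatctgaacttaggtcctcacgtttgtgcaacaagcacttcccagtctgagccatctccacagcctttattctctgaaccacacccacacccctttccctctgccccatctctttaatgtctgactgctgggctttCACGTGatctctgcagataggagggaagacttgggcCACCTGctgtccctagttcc
Klk1: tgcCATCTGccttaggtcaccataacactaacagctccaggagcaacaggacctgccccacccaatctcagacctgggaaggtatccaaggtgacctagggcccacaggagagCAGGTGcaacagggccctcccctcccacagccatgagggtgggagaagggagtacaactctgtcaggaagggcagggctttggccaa
Ccr9: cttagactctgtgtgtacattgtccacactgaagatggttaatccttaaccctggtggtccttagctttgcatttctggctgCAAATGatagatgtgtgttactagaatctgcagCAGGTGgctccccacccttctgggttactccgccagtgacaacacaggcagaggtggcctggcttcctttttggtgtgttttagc
Spib: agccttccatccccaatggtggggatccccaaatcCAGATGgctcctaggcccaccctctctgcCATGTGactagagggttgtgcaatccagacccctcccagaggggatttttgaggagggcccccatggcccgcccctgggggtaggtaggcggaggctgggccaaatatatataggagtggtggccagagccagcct
Cxcr6: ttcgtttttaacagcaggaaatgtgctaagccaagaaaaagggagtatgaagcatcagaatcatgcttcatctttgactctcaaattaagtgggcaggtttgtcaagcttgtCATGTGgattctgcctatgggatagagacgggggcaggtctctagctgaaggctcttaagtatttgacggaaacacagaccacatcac
Pdcd1: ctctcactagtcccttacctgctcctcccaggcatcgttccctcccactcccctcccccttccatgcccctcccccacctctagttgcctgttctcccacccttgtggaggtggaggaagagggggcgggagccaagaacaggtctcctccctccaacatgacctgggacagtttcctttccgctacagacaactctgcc
Each of the 4 pDC windows held 2 E-boxes, the Cxcr6 window 1 and the Pdcd1 window 0. An E-box was present in 58.2% of 32851 RefSeq promoter windows of the same length, so its presence in a window sets no gene apart, and the letters say nothing of binding.

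**Figure D1:**
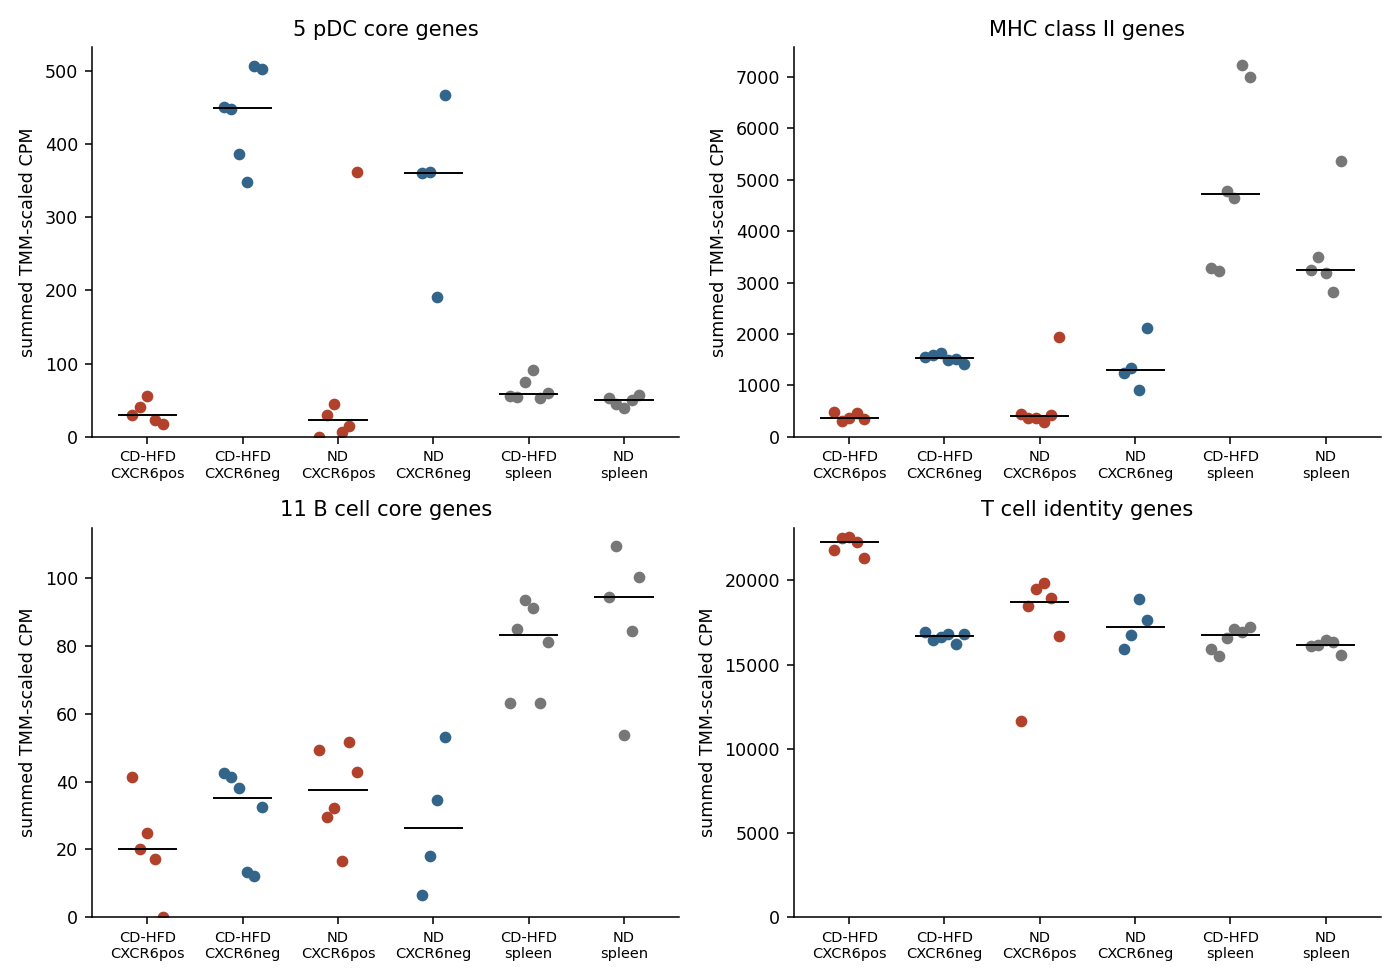
Summed level (TMM-scaled CPM, linear axis from 0) of 4 gene lists in each of 32 libraries by group, each dot 1 library and each line the group median. The CD-HFD CXCR6pos libraries lie at 17.7 to 56.0 CPM for the pDC core genes and the CD-HFD CXCR6neg libraries at 348 to 507 CPM, while the B cell core genes reach at most 42.5 CPM in both and overlap.

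B cells were a different case, since their defining genes were at or near 0 in both fractions. Ms4a1 (CD20) had 4 counts in CXCR6pos and 0 in CXCR6neg, Cd79a of the antigen receptor complex 1 and 0, and Pax5, the factor of B cell identity, 0 and 1. The B cell core list less Cd79b (10 genes) had 10 counts in all CXCR6pos libraries and 9 in all CXCR6neg libraries, against 117 in the CD-HFD spleen libraries. The spleen libraries were deeper, with 3365818 counts in total, against 1097951 in CXCR6pos and 1383839 in CXCR6neg. Cd79b was at 11.8, 10.1, 18.7, 14.4 and 0 CPM in the CXCR6pos libraries, against 12.1 to 33.9 CPM (median 26.7) in CXCR6neg, overlapping, and did not pass (log2 fold change -0.98 ± 0.47 (SE, adjusted p = 0.2)). Summed over all 11 core genes, the level was 0 to 41.3 CPM (median 20.3) in CXCR6pos and 12.1 to 42.5 CPM (median 35.3) in CXCR6neg.

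Some genes counted as B cell genes were nevertheless lower in CXCR6pos. Of 13 tested genes on the wider B cell list, 5 were lower (Ighm, Ly6d, Ly86, Napsa and Spib) and 1 higher (Cd38). Spib, Ly6d and Ly86 are on the pDC list as well. Ighm, the heavy chain of IgM, was at 82.7, 94.5, 80.9, 118 and 88.4 CPM in the CXCR6pos libraries, against 273 to 404 CPM (median 326) in CXCR6neg, a log2 fold change of -1.77 ± 0.40 (SE, adjusted p = 0.00259). Igkc, the kappa light chain, was at 159, 179, 454, 320.3 and 53.1 CPM in the CXCR6pos libraries, against 119 to 213 CPM (median 161) in CXCR6neg, overlapping, and did not pass (adjusted p = 0.597). Iglc3, a lambda light chain, had 5 counts in CXCR6pos and 129 in CXCR6neg, without overlap, and did not pass either (adjusted p = 0.0747). The 13 genes of the wider list under the filter had 75 counts in CXCR6pos and 185 in CXCR6neg. Among them were Bcl11a, with 1 and 37, and Mef2c, with 8 and 28, both on the pDC list as well. Fcrla, an Fc receptor-like gene of B cells, had 1 and 32, and Mzb1, a gene of antibody secretion that pDCs use too, 2 and 20. Others had more counts in CXCR6pos, namely Swap70 with 19 and 10, Fcmr with 5 and 4 and Scd1 with 2 and 0.

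MHC class II genes, which B cells and dendritic cells share, were lower in CXCR6pos in 5 of 8 tested and higher in 0. Their summed level was 314 to 484 CPM (median 373) in CXCR6pos and 1425 to 1630 CPM (median 1530.1) in CXCR6neg. Cd74, the invariant chain that guides class II molecules, was at 171, 87.8, 181, 129.8 and 53.1 CPM in the CXCR6pos libraries, against 568 to 666 CPM (median 593) in CXCR6neg. The class II chain genes H2-Ab1 and H2-Aa changed by -2.08 ± 0.48 and -1.52 ± 0.49 on the log2 scale, and H2-DMb1, a peptide-loading subunit, by -3.06 ± 0.63. In spleen libraries class II summed to between 2810 and 7231 CPM. B cell core counts were present there, and conventional dendritic cell genes summed to 1140 to 2846 CPM. The latter summed to 243 to 389 CPM in CXCR6pos and 290 to 583 CPM in CXCR6neg. Most of these sums was 1 gene, Cst3, at a mean of 286 CPM in CXCR6pos and 382 CPM in CXCR6neg. The mean sums of the list were 308 and 461 CPM. In the CD-HFD spleen Cst3 had 4568 counts. The 10 genes of the list under the filter, which leave out Cst3 and Naaa, had 7 counts in CXCR6pos and 87 in CXCR6neg. Which cells carried the class II transcripts was not tested.

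A slope within groups was used to ask which genes went with the pDC genes from library to library. Each library's pDC score, the log2 of its summed pDC core CPM plus 10, was entered with a B cell score beside 1 coefficient per group, so the slope uses no difference between groups as labelled. A library that carried the label of the other fraction would bring the difference between fractions into it. Over 6174 genes, 35 had a positive slope (0.567%) and 0 a negative one in edgeR's quasi-likelihood test, with 391 genes at an unadjusted p under 0.05. Of these 35, 32 were among the 394 lower genes (8.12% of them) and 0 among the 294 higher genes. They included the core genes Siglech, Klk1, Cox6a2 and Smim5, which make up the score, and 28 lower genes outside the core. Of the 32, 24 were on the pDC, B cell or MHC class II lists and 8 were on none.

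The slopes of these genes differed in size. Spib rose by 1.51 ± 0.21 (log2 per log2 unit of the score), Ccr9 by 1.34 ± 0.24, Ctsh by 1.30 ± 0.14, Irf8 by 0.94 ± 0.08 and Cd74 by 0.82 ± 0.11. H2-Ab1 and H2-Aa, listed under MHC class II, had slopes of 0.54 ± 0.12 and 0.57 ± 0.13. Genes off the lists that passed included Ppfia4, a liprin gene, with 0.86 ± 0.22, Ramp1, the receptor-modifying partner of the CGRP receptor, with 0.87 ± 0.19, and the large scaffold gene Ahnak, with 0.17 ± 0.04. The B cell score gave 0 genes at an adjusted p under 0.05 by edgeR and 332 at an unadjusted p under 0.05.

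The slope count rests on 1 library, the ND CXCR6pos replicate at the level of the CXCR6neg libraries, and for this library a slope and a difference between fractions cannot be told apart. Without ND CXCR6pos replicate 6, 2 genes passed instead of 35, both of them among the 35, and the slope was still positive in 31 of the 35. Restricting the fit to liver libraries gave 32 genes, and dropping Pacsin1 from the score gave 39.

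With both scores as covariates, the fold changes were fitted again. The 32 lower genes with a slope were chosen by that slope in this same fit, and the score differs between the fractions. Their smaller fold changes with the scores, and so the contrast with the other lower genes, follow largely from that choice and are no separate result. The 32 lower genes with a slope had a median log2 fold change of -3.65 without the scores (-3.57 with the 4 genes that had no count in CXCR6pos at their bound) and -0.52 with them, 25 of 32 kept their sign, and 1 of them, Plac8, was still lower. The other 362 lower genes had a median of -0.88 without and -0.81 with the scores, all 362 kept their sign, and 71 still passed. The 294 higher genes had 0.87 without and 0.78 with the scores, 291 kept their sign and 38 still passed. In all, 118 genes passed with the covariates (1.91%), 44 higher and 74 lower. The SE of a gene was a median of 1.55 times larger, and the score separated the fractions in the CD-HFD libraries, where it ran from 4.79 to 6.05 in CXCR6pos and from 8.48 to 9.01 in CXCR6neg, with no library between them.

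Without ND CXCR6pos replicate 6, a setting chosen after the data were seen, the medians with covariates were -1.38 for 30 of the lower genes with a slope, -0.87 for 361 other lower genes and 1.02 for the 294 higher genes. The number of genes passing was then 39, 16 higher and 23 lower. Of the genes that passed without covariates, 282 of the 294 higher and 347 of the 361 other lower genes kept their sign.

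**Figure D2:**
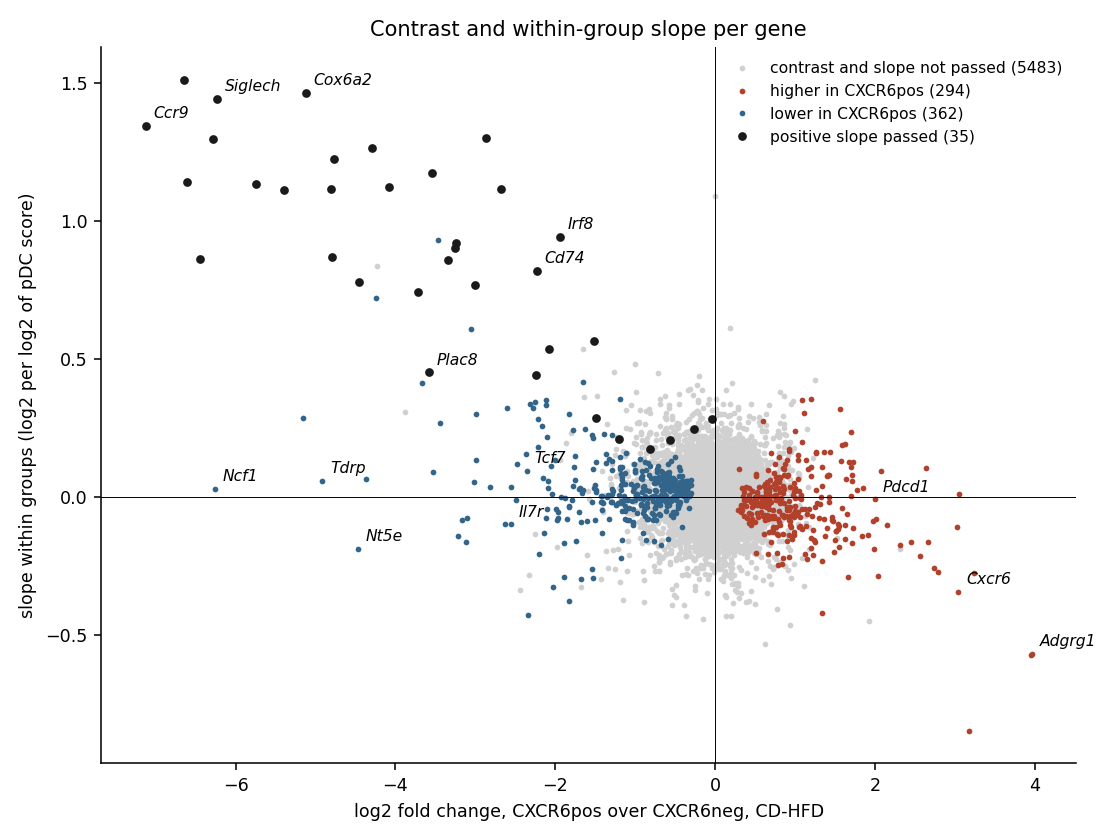
Each dot is 1 of 6174 genes, placed by its log2 fold change of CXCR6pos over CXCR6neg under CD-HFD (horizontal axis) and by its slope on the pDC score within groups (vertical axis, log2 per log2 unit). Of the 35 genes with a slope past the test (black), 32 are among the genes lower in CXCR6pos, while Tcf7, Il7r, Nt5e and Tdrp are lower in CXCR6pos with slopes near 0.

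**Figure D3:**
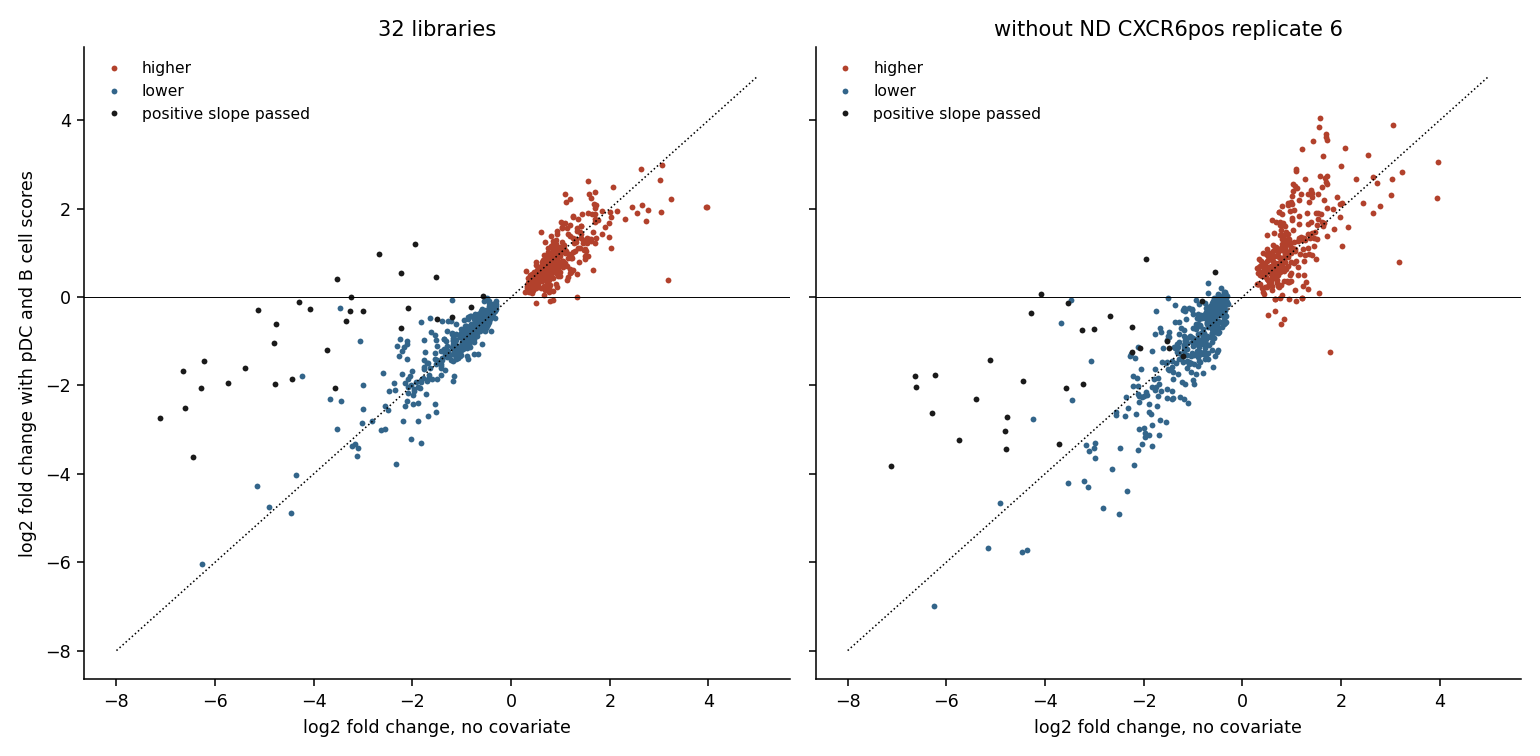
Log2 fold change of each of the 688 genes that passed, without covariates (horizontal axis) and with the pDC and B cell scores as covariates (vertical axis), in 32 libraries (left) and without ND CXCR6pos replicate 6 (right), and the dotted line marks equal values. In the left panel the 32 genes with a slope (black) have a median of -0.52 on the vertical axis, against -3.65 on the horizontal axis, while the 362 other lower genes (blue) have -0.81 against -0.88. The 32 were chosen by their slope in the same fit, so their shift follows largely from that choice.

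Single genes show how the scores acted. Irf8 changed sign, from -1.94 ± 0.48 without the scores to 1.21 ± 0.36 (adjusted p = 0.0495) with them. Cd74 and H2-Aa were at 0.55 ± 0.52 and 0.44 ± 0.59 with the scores, Tcf4 at 0.01 ± 0.51 and Cox6a2 at -0.30 ± 0.98, none of them past the test. Plac8, a cysteine-rich protein of pDCs and of memory T cells, kept -2.05 ± 0.39 (adjusted p = 0.000306). Tyrobp was at -1.85 ± 0.58 (adjusted p = 0.0996) and did not pass.

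Not every gene of the pDC list had a slope. Ly6c2, which memory T cells use too, had a slope of -0.04 ± 0.04, which did not pass. Atp1b1, a subunit of the sodium pump, had 1 count in CXCR6pos and 63 in CXCR6neg, 49.6-fold lower in CXCR6pos (95% counting interval 8.59 to 1991), with a slope of 0.29 ± 0.19 that did not pass. Ncf1, the NADPH oxidase organizer p47phox, is on none of the other-cell lists and had no count in CXCR6pos and 39 in CXCR6neg. It was at least 10.2-fold lower in CXCR6pos, and its slope was 0.03 ± 0.19. Fcer1g, the gamma chain shared by Fc receptors and NK receptors, was at 29.5, 3.38, 37.3, 40.4 and 0 CPM in the CXCR6pos libraries, against 102 to 145 CPM (median 122) in CXCR6neg, with a slope of 0.28 ± 0.10 that did not pass.

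The T cell genes themselves were at least as abundant in CXCR6pos. Summed over 20 T cell identity genes, the level was 21328 to 22570 CPM (median 22283) in CXCR6pos and 16251 to 16922 CPM (median 16708) in CXCR6neg. Of the 20, 7 were higher and 0 lower. Cd8a was at 1524, 1380.5, 1481, 1324 and 1715 CPM in the CXCR6pos libraries, against 836 to 1050.4 CPM (median 846) in CXCR6neg, while Cd8b1, the beta chain of the same coreceptor, was at 1748, 1948, 2116, 2109 and 1592 CPM in the CXCR6pos libraries, against 1612 to 1826 CPM (median 1724) in CXCR6neg, overlapping, and did not pass (adjusted p = 0.408). Cd3e and Cd3g, chains of the CD3 complex, were higher by 0.81 ± 0.10 and 0.99 ± 0.10, the receptor beta constant gene Trbc2 by 0.59 ± 0.10 and the adaptor Lat by 0.49 ± 0.10. pDC, B cell and MHC class II list genes made up 0.466% to 0.556% of counts in CXCR6pos and 0.927% to 1.16% in CXCR6neg, and leaving them out of the library totals gave 287 higher and 396 lower genes.

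Naive and stem-like genes were mostly lower. Of 25 tested genes 20 were lower and 1 was higher, with a median log2 fold change of -2.12 (-1.97 with the scores as covariates) against 0.00 for all genes. Tcf7, which codes for the factor TCF1 that keeps T cells able to renew, was at 35.4, 70.9, 31.1, 54.8 and 88.4 CPM in the CXCR6pos libraries, against 233 to 362 CPM (median 282) in CXCR6neg. Il7r, the interleukin-7 receptor needed for survival at rest, was at 65, 50.6, 24.9, 46.2 and 35.4 CPM in the CXCR6pos libraries, against 211 to 328 CPM (median 277) in CXCR6neg. The lowest CXCR6neg library of each was above the highest CXCR6pos library.

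Ccr7, the receptor that guides T cells into lymph nodes and to the T zone, was at 53.2, 57.4, 56, 26 and 35.4 CPM in the CXCR6pos libraries, against 311 to 419 CPM (median 369.5) in CXCR6neg. The groups did not overlap, with a log2 fold change of -3.01 ± 0.42 (SE, adjusted p = 9.77e-06). Lef1, the partner of TCF1, was at 23.6, 64.1, 49.8, 31.7 and 70.7 CPM in the CXCR6pos libraries, against 132 to 235 CPM (median 187) in CXCR6neg, and did not overlap. Satb1, a chromatin organizer of naive T cells, changed on the log2 scale by -2.12 ± 0.37, Foxp1, a factor of T cell quiescence, by -1.17 ± 0.23 and Nsg2 by -3.10 ± 0.47. Slamf6, a marker of stem-like exhausted cells, was at 23.6, 23.6, 24.9, 49 and 17.7 CPM in the CXCR6pos libraries, against 36.2 to 120.5 CPM (median 99.5) in CXCR6neg, with overlap. Cd27, a costimulatory receptor placed on the same list, was the exception and rose, at 408, 351, 479, 401 and 442 CPM in the CXCR6pos libraries, against 193 to 346 CPM (median 288) in CXCR6neg.

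The fold changes with the pDC and B cell scores as covariates were as follows. Tcf7 was at -2.11 ± 0.28 (adjusted p = 1.54e-08), Il7r at -2.99 ± 0.30 (adjusted p = 1.99e-13) and Ccr7 at -2.84 ± 0.61 (adjusted p = 0.00898). Satb1 and Nsg2 were at -2.34 ± 0.52 and -3.42 ± 0.65, each past the test, and Foxp1 and Slamf6 at -0.92 ± 0.34 and -0.86 ± 0.50, not past it. Tdrp had 1 count in CXCR6pos and 53 in CXCR6neg, 41.8-fold lower in CXCR6pos (95% counting interval 7.18 to 1679.8), and a slope of 0.06 ± 0.12. Nt5e, which codes for CD73, the enzyme that makes adenosine from AMP, had 1 count in CXCR6pos and 39 in CXCR6neg, 30.7-fold lower in CXCR6pos (95% counting interval 5.2 to 1244), and a slope of -0.19 ± 0.13. Its upstream partner Entpd1 (CD39), which breaks ATP down to AMP, went the other way and was at 278, 165, 268, 222 and 141 CPM in the CXCR6pos libraries, against 39.7 to 97.8 CPM (median 51.7) in CXCR6neg.

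Genes of egress from tissue were lower. Of 22 tested on the egress and retention list, 12 were lower and 2 higher, with a median of -0.81. S1pr1, the sphingosine-1-phosphate receptor that leads T cells out of tissue, was at 47.3, 60.8, 80.9, 80.8 and 88.4 CPM in the CXCR6pos libraries, against 255 to 414 CPM (median 302) in CXCR6neg, a log2 fold change of -2.15 ± 0.19 (SE, adjusted p = 1.45e-17). Klf2, the factor that drives S1pr1, was at 703, 496, 598, 563 and 867 CPM in the CXCR6pos libraries, against 1167 to 1508 CPM (median 1425) in CXCR6neg. No library of either group reached the other. S1pr4 and S1pr5, further receptors of the family, changed by -0.89 ± 0.15 and -2.17 ± 0.55, and Gpr183, the oxysterol receptor EBI2, by -1.43 ± 0.17.

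Ly6c2, a surface protein of memory and effector T cells as well as of pDCs, had the smallest adjusted p of the genes named here. It was at 602, 574, 479, 488 and 707 CPM in the CXCR6pos libraries, against 1674 to 2199 CPM (median 1983) in CXCR6neg, a log2 fold change of -1.82 ± 0.12 (SE, adjusted p = 3.68e-25), and its slope on the pDC score was -0.04 ± 0.04. Rgs1, which dampens chemokine receptor signalling and is a gene of resident T cells, was at 1412, 1445, 1425, 1223 and 831 CPM in the CXCR6pos libraries, against 169 to 472 CPM (median 361) in CXCR6neg. With the scores, S1pr1 was at -1.95 ± 0.26 (adjusted p = 3.61e-08), Klf2 at -0.96 ± 0.19 (adjusted p = 0.000354), Ly6c2 at -1.92 ± 0.19 (adjusted p = 1.13e-13) and Rgs1 at 1.42 ± 0.37 (adjusted p = 0.0435).

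**Figure D4:**
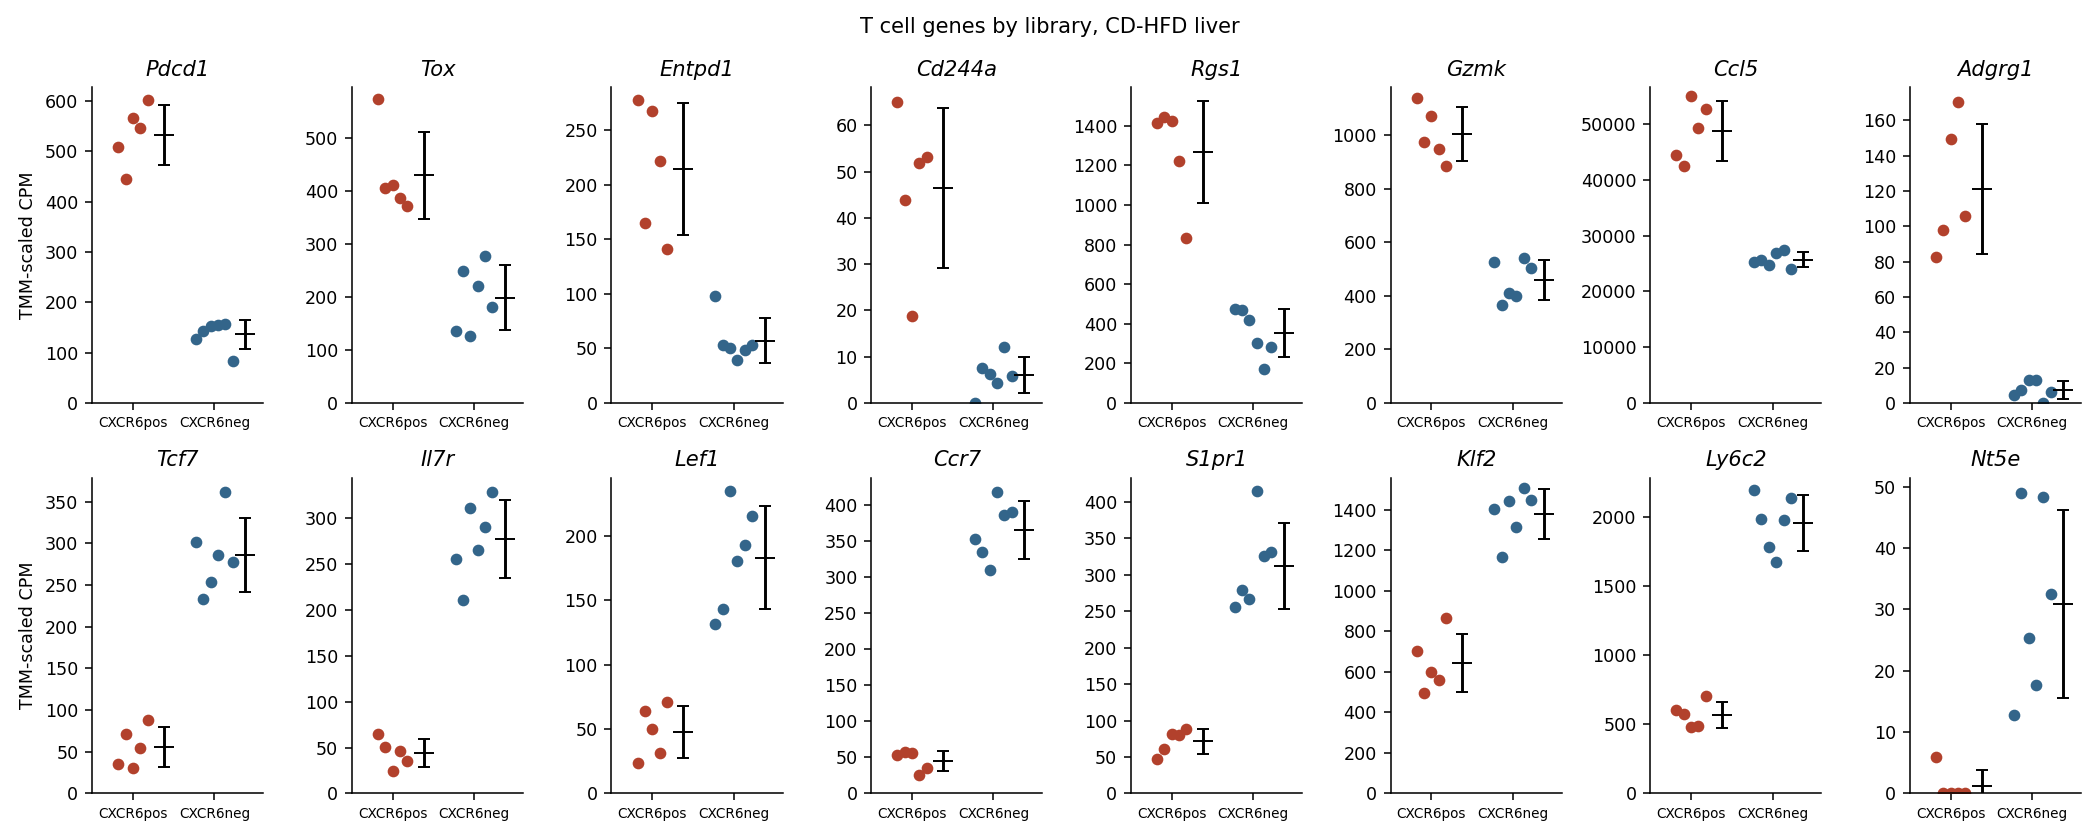
TMM-scaled CPM of 16 T cell genes in CD-HFD liver libraries (5 CXCR6pos, left, and 6 CXCR6neg, right, linear axes from 0), each dot 1 library and the bars the mean and SD. The upper 8 genes are higher in CXCR6pos and the lower 8 lower, and in none of the 16 do the libraries of the fractions overlap.

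Inhibitory receptors were higher in CXCR6pos. Of 16 tested genes 10 were higher and 1, Klrc1, was lower, with a median log2 fold change of 1.53 (1.08 with the scores). Pdcd1 (PD-1) was at 508, 446, 566, 545 and 601 CPM in the CXCR6pos libraries, against 82.8 to 157 CPM (median 148) in CXCR6neg. Entpd1 changed by 1.91 ± 0.24 (SE, adjusted p = 8.41e-10). Cd244a (the SLAM receptor 2B4) was at 65, 43.9, 18.7, 51.9 and 53.1 CPM in the CXCR6pos libraries, against 0 to 12.1 CPM (median 6.13) in CXCR6neg, and Cd160, an HVEM receptor, at 389.8, 361, 193, 188 and 248 CPM in the CXCR6pos libraries, against 37.6 to 65 CPM (median 58.7) in CXCR6neg. In each of these 4 genes the groups were apart. With the scores Pdcd1 was at 1.93 ± 0.54 (adjusted p = 0.0592), Entpd1 at 1.58 ± 0.42 (adjusted p = 0.0241), Cd244a at 2.65 ± 0.78 (adjusted p = 0.0471) and Cd160 at 1.77 ± 0.52 (adjusted p = 0.0814).

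Further inhibitory receptors that were higher had more spread between libraries. Ctla4, which competes with CD28 for its ligands, was at 177, 216, 492, 415 and 301 CPM in the CXCR6pos libraries, against 56.2 to 179 CPM (median 108) in CXCR6neg. Tigit, a receptor for CD155, was at 154, 118, 193, 251 and 124 CPM in the CXCR6pos libraries, against 24.1 to 108 CPM (median 57.8) in CXCR6neg, Lag3, a receptor for MHC class II, at 41.3, 57.4, 131, 101 and 0 CPM in the CXCR6pos libraries, against 12.8 to 36.2 CPM (median 21.4) in CXCR6neg, and Havcr2 (TIM-3) at 35.4, 40.5, 149, 127 and 159 CPM in the CXCR6pos libraries, against 0 to 82.4 CPM (median 38.3) in CXCR6neg. Ctla4, Lag3 and Havcr2 overlapped between the groups and Tigit did not. Cd38, an NAD-consuming surface enzyme, was at 88.6, 118, 149, 121 and 159 CPM in the CXCR6pos libraries, against 24.1 to 69.8 CPM (median 35.4) in CXCR6neg, and changed by 1.66 ± 0.29 without and 0.60 ± 0.52 with the scores. Klrc1, the inhibitory lectin-like receptor NKG2A, was at 17.7, 43.9, 74.7, 72.1 and 17.7 CPM in the CXCR6pos libraries, against 76.5 to 178 CPM (median 119) in CXCR6neg.

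Transcription factors of exhaustion and residency were mostly higher, 10 of 17 tested against 1 lower, with a median of 0.86 (1.06 with the scores). Tox, which sets the exhausted state, was at 573, 405, 411, 387 and 371 CPM in the CXCR6pos libraries, against 127 to 277 CPM (median 200.3) in CXCR6neg. Bhlhe40, a factor of resident T cells, was at 721, 861, 896, 1013 and 725 CPM in the CXCR6pos libraries, against 368 to 467 CPM (median 405) in CXCR6neg, and Nr4a2, a nuclear receptor induced by antigen receptor signals, at 419, 368, 486, 441 and 336 CPM in the CXCR6pos libraries, against 48.3 to 158 CPM (median 130.03) in CXCR6neg. None of the 3 overlapped, and with the scores they were at 1.43 ± 0.41 (adjusted p = 0.0642), 1.10 ± 0.22 (adjusted p = 0.00079) and 1.89 ± 0.37 (adjusted p = 0.00171). Runx3, needed for tissue-resident CD8 T cells, changed by 0.86 ± 0.17, Prdm1 (Blimp-1), a repressor of the memory program, by 1.09 ± 0.29, and Batf, an AP-1 factor of effector cells, by 0.78 ± 0.16.

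Id2 and Id3, which both hold E proteins in check, went in opposite directions. Id2, the form of effector cells, was at 1057, 1202, 1961, 2189.9 and 1344 CPM in the CXCR6pos libraries, against 570.5 to 936 CPM (median 701) in CXCR6neg, and Id3, the form of memory precursors, at 23.6, 33.8, 0, 2.89 and 17.7 CPM in the CXCR6pos libraries, against 59.1 to 97.8 CPM (median 77.6) in CXCR6neg, log2 fold changes of 1.09 ± 0.23 (SE, adjusted p = 0.00135) and -2.27 ± 0.39 (SE, adjusted p = 9.77e-06). The T-box factors Eomes and Tbx21 did not pass, with values of 0.45 ± 0.24 and -0.24 ± 0.18. Foxo1, the factor behind Klf2 and Il7r, was at 23.6, 23.6, 6.22, 17.3 and 35.4 CPM in the CXCR6pos libraries, against 17.7 to 60.3 CPM (median 29.6) in CXCR6neg, overlapping, and did not pass (adjusted p = 0.524).

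Cytotoxic genes were higher in 11 of 19 tested and lower in 1, with a median of 0.67. Gzmb, the protease granzyme B, was at 1477, 1475, 2384, 2239 and 1521 CPM in the CXCR6pos libraries, against 514 to 726 CPM (median 628) in CXCR6neg, and Gzmk, a granzyme of memory-like cells, at 1139.96, 975, 1071, 949 and 884 CPM in the CXCR6pos libraries, against 365 to 543 CPM (median 459) in CXCR6neg. Gzma was at 461, 435, 1419, 1293 and 2139.8 CPM in the CXCR6pos libraries, against 203 to 507 CPM (median 229.6) in CXCR6neg, a wide range within CXCR6pos whose lower end overlapped with CXCR6neg. The exception was Gzmm, at 41.3, 23.6, 6.22, 23.1 and 88.4 CPM in the CXCR6pos libraries, against 61.7 to 117 CPM (median 85.9) in CXCR6neg, which fell. Nkg7, a protein of cytotoxic granules, was at 7631, 8036, 8845, 8318 and 7639.8 CPM in the CXCR6pos libraries, against 3856 to 4802 CPM (median 4534) in CXCR6neg and was among the most abundant genes named here.

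Other genes of target cell killing were higher too. Prf1 (perforin) changed by 0.72 ± 0.15 (SE, adjusted p = 9.63e-05), Fasl, which triggers cell death through Fas, by 0.67 ± 0.14 (SE, adjusted p = 0.000158), Tnfsf10 (TRAIL) by 1.48 ± 0.43 (SE, adjusted p = 0.0106) and Cst7, an inhibitor of granule proteases, by 0.73 ± 0.12 (SE, adjusted p = 1.59e-06). Fas, the receptor of Fasl, was lower at 23.6, 20.3, 37.3, 11.5 and 35.4 CPM in the CXCR6pos libraries, against 21.3 to 109 CPM (median 67) in CXCR6neg. With the scores as covariates Nkg7 was at 0.80 ± 0.16 (adjusted p = 0.00063) and still passed, while Gzmb, at 1.34 ± 0.50 (adjusted p = 0.213), and Fasl, at 0.25 ± 0.22 (adjusted p = 0.727), did not. Prf1, Tnfsf10 and Cst7 were then at 0.25, 1.06 and 0.58 and did not pass either.

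Of 13 tested cytokine and chemokine genes, 6 were higher and 1 lower. Ccl5, the chemokine RANTES, was at 44494, 42461, 55088, 49407 and 52700.5 CPM in the CXCR6pos libraries, against 24004 to 27495 CPM (median 25461) in CXCR6neg. It took more counts than any other gene named here and did not overlap. Ccl3, an inflammatory chemokine, was at 727, 729, 927, 938 and 1043 CPM in the CXCR6pos libraries, against 168 to 374 CPM (median 255) in CXCR6neg, Ccl4, its neighbour in the family, changed by 0.80 ± 0.27 (SE, adjusted p = 0.0498), and Ifng (interferon gamma) by 0.96 ± 0.24 (SE, adjusted p = 0.00582). Csf1, the growth factor of macrophages, was at 47.3, 54, 93.4, 118 and 70.7 CPM in the CXCR6pos libraries, against 0 to 17 CPM (median 7.58) in CXCR6neg. Il10, an anti-inflammatory cytokine, was at 53.2, 40.5, 255, 225 and 88.4 CPM in the CXCR6pos libraries, against 0 to 55.3 CPM (median 37.6) in CXCR6neg, overlapping. Xcl1, a chemokine for dendritic cells that carry XCR1, was lower at 47.3, 70.9, 80.9, 124 and 106 CPM in the CXCR6pos libraries, against 145 to 254 CPM (median 191) in CXCR6neg. The scores as covariates gave 0.85 for Ccl5, 1.33 for Ccl3, 0.80 for Ccl4 and 0.49 for Ifng. They gave 0.38 for Csf1, 1.82 for Il10 and -1.78 for Xcl1. On this list 1 gene was then higher and 1 lower past the test.

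Receptors for cytokines moved both ways, with 4 of 26 tested higher and 8 lower. Besides Il7r, the lower ones were led by Ifngr1, a chain of the interferon gamma receptor, at 389.8, 385, 411, 303 and 318 CPM in the CXCR6pos libraries, against 579 to 698 CPM (median 656) in CXCR6neg, Il18r1, the interleukin-18 receptor, at 35.4, 16.9, 12.4, 34.6 and 17.7 CPM in the CXCR6pos libraries, against 59.5 to 95.1 CPM (median 75.3) in CXCR6neg, and Il6ra, the interleukin-6 receptor, at 0, 13.5, 18.7, 14.4 and 17.7 CPM in the CXCR6pos libraries, against 75.3 to 137 CPM (median 101) in CXCR6neg. In these 3 the groups did not overlap. The higher ones included Cish, a feedback inhibitor that STAT5 induces, at 129.9, 142, 143, 129.8 and 124 CPM in the CXCR6pos libraries, against 0 to 71.5 CPM (median 49.8) in CXCR6neg, and Il21r and Il10ra, with 0.64 ± 0.14 and 0.78 ± 0.18. Pim1, a kinase also induced through STAT5, was lower, by -1.16 ± 0.23. Il15ra, the chain that presents interleukin-15, was at 47.3, 30.4, 62.2, 40.4 and 35.4 CPM in the CXCR6pos libraries, against 0 to 37.6 CPM (median 20.1) in CXCR6neg, overlapping, and did not pass (adjusted p = 0.0976).

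Among costimulatory receptors and adaptors 7 of 20 tested were higher and 3 lower. Sh2d2a, the T cell adaptor TSAd, had the smallest adjusted p among the higher genes named here, and was at 1542, 1309.6, 1058, 1215 and 831 CPM in the CXCR6pos libraries, against 352 to 429.5 CPM (median 408) in CXCR6neg, a log2 fold change of 1.62 ± 0.12 (SE, adjusted p = 2.09e-22) and 1.31 ± 0.20 (adjusted p = 1.48e-06) with the scores. Icos and Tnfrsf1b (TNF receptor 2) rose by 0.76 ± 0.24 and 0.92 ± 0.21, the SLAM receptors Slamf1 and Slamf7 by 1.40 ± 0.45 and 0.65 ± 0.21, each but Slamf7 with overlapping libraries. Fitted with the scores, Icos was at 0.93, Tnfrsf1b at 0.22, Slamf1 at 1.47 and Slamf7 at 0.83, none of them past the test.

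Genes of G protein signalling rose in 9 of 20 tested and fell in 2. Adgrg1, the adhesion receptor GPR56 of cytotoxic lymphocytes, was at 82.7, 97.9, 149, 170.2 and 106 CPM in the CXCR6pos libraries, against 0 to 13.2 CPM (median 6.72) in CXCR6neg. Chn2, a GTPase-activating protein for Rac, was at 65, 87.8, 49.8, 77.9 and 106 CPM in the CXCR6pos libraries, against 0 to 12.7 CPM (median 6.53) in CXCR6neg. Both were close to absent from CXCR6neg, with 10 counts each in its 6 libraries. Ptger4, a receptor for prostaglandin E2, rose to 230.4, 172, 99.6, 124 and 53.1 CPM in the CXCR6pos libraries, against 37.6 to 95.1 CPM (median 51.5) in CXCR6neg, overlapping. Adgrg5, another adhesion receptor, and Rgs10, a regulator of G protein signals, fell by 1.74 and 1.76 on the log2 scale.

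Further large increases were Osgin1, an oxidative stress response gene, at 88.6, 54, 49.8, 63.5 and 88.4 CPM in the CXCR6pos libraries, against 0 to 24.1 CPM (median 1.88) in CXCR6neg, Podnl1, at 70.9, 64.1, 80.9, 75 and 106 CPM in the CXCR6pos libraries, against 0 to 24.1 CPM (median 15.2) in CXCR6neg, Susd3, at 112, 84.4, 187, 133 and 141 CPM in the CXCR6pos libraries, against 12.1 to 51 CPM (median 24.5) in CXCR6neg, and Glrx, a glutaredoxin, at 278, 223, 492, 559.7 and 177 CPM in the CXCR6pos libraries, against 72.4 to 149.8 CPM (median 108) in CXCR6neg. None of these overlapped. Fgl2, a secreted fibrinogen-like protein with a suppressive role in T cells, changed by 1.98 ± 0.46 and the kinase gene Dapk2 by 1.98 ± 0.33. Apoe, the 1 hepatocyte list gene of 16 that was tested, was at 65, 165, 43.6, 23.1 and 70.7 CPM in the CXCR6pos libraries, against 4.41 to 26.6 CPM (median 11.7) in CXCR6neg, while Alb had 6 counts in CXCR6pos and 1 in CXCR6neg. The receptor gamma constant genes Tcrg-C2 and Tcrg-C4 were higher, by 2.56 ± 0.39 and 2.78 ± 0.30. Tcrg-C1, of the same family, had 10 counts in CXCR6pos and 17 in CXCR6neg. How reads divide between genes of this family was not tested.

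Genes of recent activation were not uniformly higher. Of 25 tested AP-1 and immediate-early genes 3 were higher and 7 lower, with a median of -0.06. Fos and Jun, the partners of AP-1, were at 165, 162, 218, 156 and 212 CPM in the CXCR6pos libraries, against 307 to 498 CPM (median 378) in CXCR6neg, and at 278, 273, 224, 138 and 177 CPM in the CXCR6pos libraries, against 326 to 488 CPM (median 387) in CXCR6neg. Dusp2, a phosphatase that ends MAP kinase signals, was higher at 927, 705, 286, 268 and 371 CPM in the CXCR6pos libraries, against 121 to 241 CPM (median 177) in CXCR6neg. Of 18 tested NF-kB and TNF feedback genes 1 was higher, Tnfaip3 (A20), with 0.44 ± 0.13, and 4 were lower, among them Nfkbia, the inhibitor of NF-kB, with -0.95 ± 0.13, and Map3k8, the kinase TPL2, with -2.14 ± 0.42. Zfp36l1, an RNA-binding protein that destabilizes transcripts, fell by 0.92 on the log2 scale.

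Killer lectin-like receptor genes fell in 4 of 12 tested and rose in 0, with a median of -1.28. Klra7, of the Ly49 family, was at 11.8, 10.1, 37.3, 11.5 and 0 CPM in the CXCR6pos libraries, against 34 to 88.8 CPM (median 46.2) in CXCR6neg, and Klrc2, the activating receptor NKG2C, had 3 counts in CXCR6pos and 21 in CXCR6neg, 5.51-fold lower in CXCR6pos (95% counting interval 1.65 to 28.9). Both belong to families of similar copies, so their reads may be divided between them. Of 10 tested NK cell list genes 5 were lower and 1 higher, while Ncr1, which defines NK cells, had 0 counts in both fractions.

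Of the remaining lists, 33 of 78 tested ribosomal protein genes were lower and 0 higher, with a median of -0.33. The mitochondrially encoded genes were lower in 5 of 10 tested and higher in 0, with a median of -0.38. Rps19, a protein of the small subunit, was at 2664, 2599, 2670.4, 3128 and 1857 CPM in the CXCR6pos libraries, against 3800.3 to 5049 CPM (median 4382) in CXCR6neg. Of 8 GIMAP genes, GTPases of lymphocyte survival, 5 were higher and 0 lower, and Gimap7 was at 744, 769.6, 703, 967 and 1026 CPM in the CXCR6pos libraries, against 329.8 to 544 CPM (median 510.1) in CXCR6neg. Gimap7 changed by 0.79 without and 0.28 with the scores, and 0 of the 8 passed with them. S100, annexin and galectin list genes were higher in 2 of 18 and lower in 5. S100a6, a calcium-binding protein, rose by 0.73 ± 0.19 (log2), while Vim (vimentin) and Tmsb10, which binds actin, fell by 0.88 and 0.68. Glycolysis (1 of 11 tested higher), oxidative phosphorylation (1 of 25 higher) and proliferation (1 of 14 higher and 1 lower) had shares near or under those of all genes.

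**Figure D5:**
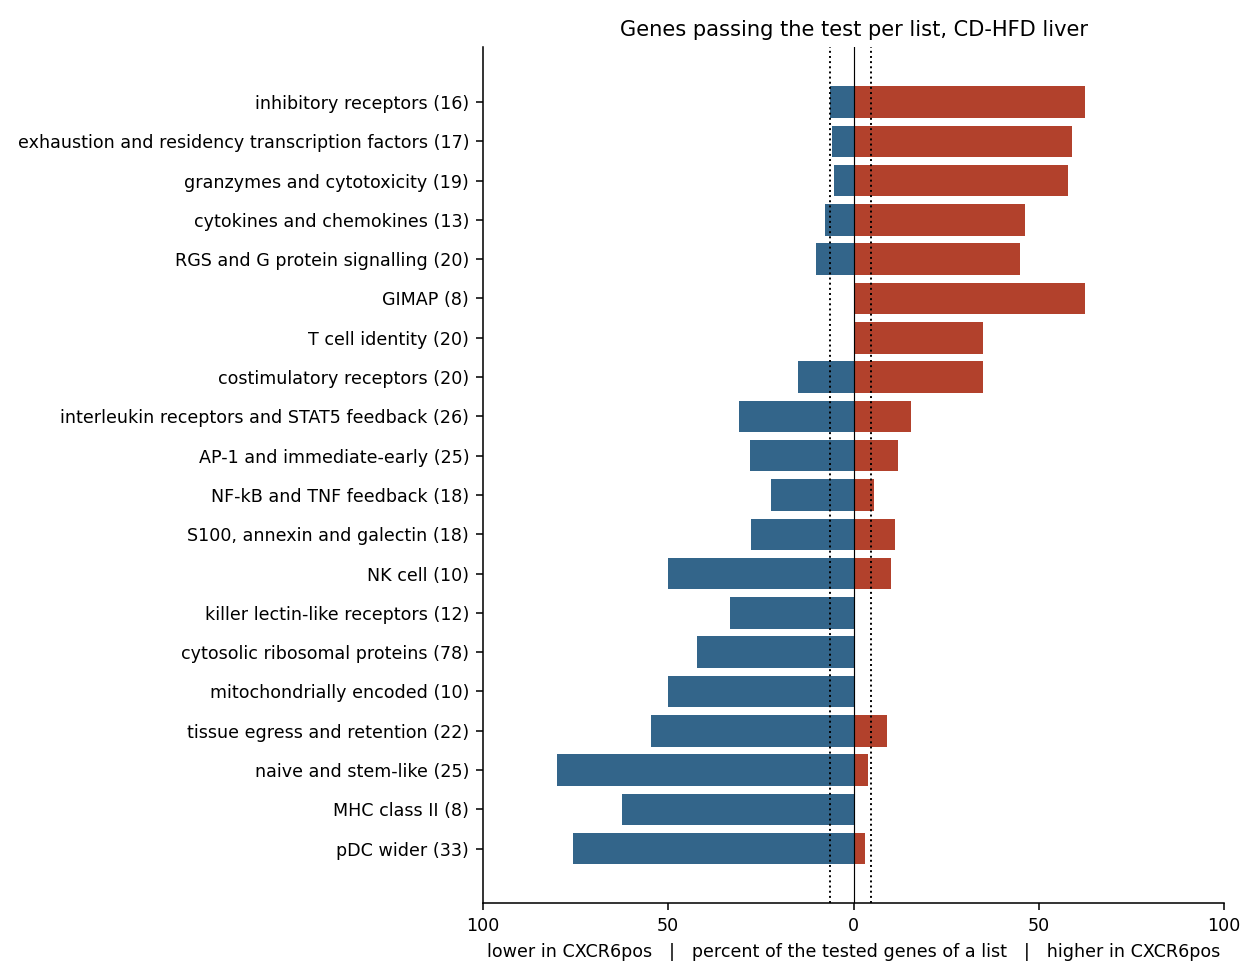
Share of the tested genes of each list (number tested in brackets) that were higher in CXCR6pos (bars to the right) or lower (bars to the left) under CD-HFD, in percent, with dotted lines at the 4.76% and 6.38% of all 6174 tested genes. Inhibitory receptors reach 10 of 16 on the right, and naive and stem-like genes 20 of 25 on the left.

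Markers of further cell types were also counted. Of 12 conventional dendritic cell genes 2 were tested and 0 passed. The 10 genes under the filter had 7 counts in all CXCR6pos libraries, 6 of them of Itgax (CD11c), and 87 in all CXCR6neg libraries. CXCR6pos libraries held 0 counts of Cd209a, a dendritic cell lectin, against 21 in CXCR6neg, and 0 of Clec10a, another lectin of these cells, against 14. Clec9a and Xcr1, which define the cross-presenting type, had 0 and 1 counts in CXCR6pos and 5 and 2 in CXCR6neg. The part of these cells in the MHC class II difference was not tested. Of 14 Kupffer cell and macrophage genes 2 were tested and 0 passed, and Clec4f, which defines Kupffer cells, had 0 counts in both. Foxp3, the factor of regulatory T cells, had 1 count in each fraction, and Trdc, the delta chain of gamma delta T cells, 2 in CXCR6pos and 16 in CXCR6neg. Haemoglobin and other erythroid genes summed to 3666 to 10619.9 CPM in CXCR6pos and 1750 to 9172 CPM in CXCR6neg, overlapping, and 0 of 6 tested passed. Of 10 neutrophil, 7 platelet and 10 stellate and fibroblast genes none reached the filter, and of 2 endothelial genes tested 0 passed.

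Cx3cr1, a receptor of circulating effector cells, was at 17.7, 23.6, 62.2, 57.7 and 17.7 CPM in the CXCR6pos libraries, against 47.3 to 76.5 CPM (median 56.2) in CXCR6neg, overlapping, and did not pass (adjusted p = 0.371). P2rx7, an ATP-gated channel, had 4 counts in CXCR6pos and 11 in CXCR6neg and did not pass (adjusted p = 0.578). Bst2, an interferon-induced tetherin that marks mouse pDCs, was at 118, 94.5, 87.1, 113 and 70.7 CPM in the CXCR6pos libraries, against 185 to 340.2 CPM (median 311) in CXCR6neg, and of 27 tested interferon-stimulated genes 5 were lower and 2 higher. Bcl2a1b, a survival gene of the BCL2 family with near-identical copies, was at 171, 186, 255, 219 and 283 CPM in the CXCR6pos libraries, against 48.3 to 149.8 CPM (median 117) in CXCR6neg, with no overlap. Maf, a factor that drives Il10, changed by 1.56 ± 0.34 and Litaf by 1.64 ± 0.28. Dapl1, a gene of naive T cells, was at 29.5, 13.5, 6.22, 5.77 and 53.1 CPM in the CXCR6pos libraries, against 109 to 207 CPM (median 171) in CXCR6neg, and Klf3, a repressor of the same family as Klf2, at 70.9, 57.4, 43.6, 49 and 88.4 CPM in the CXCR6pos libraries, against 105 to 157 CPM (median 131) in CXCR6neg.

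The contrast was set against the same contrast under ND, where 2 genes passed (0.0324%, by edgeR, with 501 at an unadjusted p under 0.05). Without ND CXCR6pos replicate 6, a setting chosen after the data were seen, 58 genes passed (0.958%), 17 higher and 41 lower, with both of the 2 among them. Of the genes tested, 89 differed between the diets' contrasts (1.44%), 27 with a larger difference upward under CD-HFD and 62 downward. Cxcr6 itself did not pass under ND (log2 fold change 1.07 ± 0.34), and its diet difference, 1.97 ± 0.52 (adjusted p = 0.0568), did not pass. Without that library the ND value was 1.29 ± 0.30 (adjusted p = 0.0269), and 67 diet differences passed (1.11%), 66 of them among the 89. Leaving out ND CXCR6pos replicate 6 and ND CXCR6neg replicate 4 together left 53 genes, of which 46 were among the 89. Under CD-HFD Cxcr6 changed by 3.04. Under ND its levels overlapped between the fractions, at 201 to 812 CPM in CXCR6pos and 40.0 to 450 CPM in CXCR6neg. An effect of diet and a weaker separation of the sorted fractions under ND therefore cannot be told apart in the diet differences.

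Genes of naive and recirculating T cells led these differences. Under ND Tcf7 changed by -0.42 ± 0.15, a difference from CD-HFD of -1.94 ± 0.26 (adjusted p = 1.71e-08), Il7r by -0.18 ± 0.17, a difference of -2.38 ± 0.31 (adjusted p = 4.83e-07), and S1pr1 by -0.18 ± 0.14, a difference of -1.98 ± 0.24 (adjusted p = 1.22e-09). Ly6c2 was at -0.06 ± 0.11 under ND, with the difference -1.76 ± 0.16 (adjusted p = 3.18e-15). In the other direction the differences of Sh2d2a, 1.18 ± 0.18 (adjusted p = 1.56e-06), Bhlhe40, 0.96 ± 0.20 (adjusted p = 0.00164), and Cd3e, 0.76 ± 0.14 (adjusted p = 0.000279), were positive. Each of these 7 differences also passed without ND CXCR6pos replicate 6. For the pDC core genes the fitted ND contrast, which did not pass, was -2.03 ± 0.59 for Siglech, -1.90 ± 0.57 for Klk1 and -1.81 ± 0.60 for Cox6a2, and their diet differences did not pass (adjusted p = 0.239, 0.174 and 0.337). These values rest on ND CXCR6pos replicate 6, which held 134 counts of the 4 core genes less Pacsin1, while the other 5 ND CXCR6pos libraries held 11 and the 4 ND CXCR6neg libraries 324. Without it, the ND contrast passed for Siglech (adjusted p = 1.28e-13), Klk1 (4.65e-07), Cox6a2 (7.15e-15) and Smim5 (0.00197), each lower in CXCR6pos, and the diet differences did not pass (adjusted p = 0.902, 0.912, 0.954 and 0.629). Pdcd1, at 1.25 ± 0.47 under ND, and Tox, at 0.22 ± 0.32, likewise had no diet difference past the test (adjusted p = 0.721 and 0.319).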

How the data were processed

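The deposited table holds raw counts, in whole numbers, for 22865 gene symbols. Per the labels' protocols, libraries were made with barcoded oligo-dT primers with unique molecular identifiers and read from the 3′ end, which carries no length to correct. Per the submitters' processing notes, the build was GRCm38.p6 and the authors used DESeq2 1.14.1; the aligner, the counter, the use of strand and any collapse of identifiers are unknown, as the sources used here do not give them. Of 35 labelled samples, 34 matched a column by name, 1 column matched none and was not used, and CD-HFD CXCR6pos replicate 6 was not analysed here. The 2 columns that were identical under labels of different groups were left out, so the fit held 32 libraries in 6 groups, where all libraries had been planned.

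Counts were filtered with filterByExpr, scaled by TMM and tested in edgeR 4.0.16 (R 4.3.3) by quasi-likelihood, with 1 coefficient per group and Benjamini-Hochberg adjustment over 6174 genes at 0.05. The SE was taken from the F statistic, as the log2 fold change over its square root. The pDC and B cell scores add a constant of 10 CPM before the log. Genes with no count in a group have a bound from 3 counts over the group, and those with 1 to 3 counts a ratio of counts with its exact 95% interval, both for counting error only. The tests were checked on simulated data. Gene coordinates come from GENCODE M21 (GRCm38).

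Genes are named from the 30 largest changes in each direction past the threshold and a mean of 20 CPM or more in either fraction, up to 8 genes a list by p, the 8 smallest p for slopes and for diet differences in each direction, and 13 fixed genes; others are counted. The comparison, the gene lists and the named genes were chosen with earlier results of these data known, so the lists are no independent support. Genes named for B cells and other cells outside that rule, given as counts, are defining markers. Alternatives tried were DESeq2 1.42.0 and its size factors, no filter, other sets of libraries and leaving out single liver libraries. Library totals without other cells' genes and the scores as covariates were tried too.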

Additional observations from a re-analysis of the deposited data

Results flagged for a closer look

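Single libraries stood apart within a group, by the gap to their nearest neighbour, in 24 of the 282 pairs of a named gene and a CD-HFD group examined. The cut-off sets about 1 in 20 apart for normally distributed values, a rate that does not hold for counts near 0. A gene with all its counts in 1 library of a group is always set apart. Among CXCR6pos libraries, 1 lay above the others for Siglech in replicate 3 (12.4 CPM), Klk1 in replicate 2 (3.38 CPM), Tyrobp in replicate 5 (88.4 CPM), Ctsh in replicate 4 (2.89 CPM) and Atp1b1 in replicate 1 (5.91 CPM). Also among CXCR6pos libraries, 1 lay above the others for Pld4 in replicate 1 (17.7 CPM), Tox in replicate 1 (573 CPM), Slamf6 in replicate 4 (49 CPM), Tdrp in replicate 3 (6.22 CPM) and Tcrg-C4 in replicate 1 (259.9 CPM). Also among CXCR6pos libraries, 1 lay above the others for Nt5e in replicate 1 (5.91 CPM) and Ramp1 in replicate 4 (2.89 CPM). Among CXCR6pos libraries, 1 lay below the others for Prdm1 in replicate 1 (59.1 CPM), Il10ra in replicate 4 (193 CPM), Il6ra in replicate 1 (0 CPM) and Nfkbia in replicate 5 (141 CPM). Among CXCR6neg libraries, 1 lay above the others for Cd8a in replicate 1 (1050.4 CPM), H2-DMb1 in replicate 4 (48.5 CPM), Entpd1 in replicate 1 (97.8 CPM), Tnfrsf1b in replicate 6 (118 CPM) and P2rx7 in replicate 5 (36.2 CPM). Also among CXCR6neg libraries, 1 lay above the others for Osgin1 in replicate 5 (24.1 CPM) and Apoe in replicate 6 (26.6 CPM). Among CXCR6neg libraries, 1 lay below the others for Cd160 in replicate 2 (37.6 CPM). The values of Siglech and Klk1 are 2 counts and 1 count. Those of Ctsh, Atp1b1, Tdrp, Nt5e and Ramp1 in CXCR6pos are 1 count each, so the rule was bound to set all of these apart. CXCR6pos replicate 1 was the library in 7 of the 24.

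The CXCR6pos over CXCR6neg contrast differed between CD-HFD and ND, by an interaction term (edgeR's quasi-likelihood test, adjusted p under 0.05), in 42 of the named genes. The log2 difference, CD-HFD minus ND, was positive for Cd3e (0.76), Cd3g (0.65), Trbc2 (0.61), Cd38 (1.59), Bhlhe40 (0.96), Cd27 (0.81) and Nkg7 (0.62). It was also positive for Prf1 (0.77), Ccl5 (0.73), Sh2d2a (1.18), Chn2 (2.65), Susd3 (1.66), Podnl1 (2.46) and Apoe (2.51). It was negative for Plac8 (-2.79), Fcer1g (-1.75), Tcf7 (-1.94), Il7r (-2.38), Ccr7 (-2.28), S1pr1 (-1.98), Klf2 (-0.99) and Ly6c2 (-1.76). Further negative differences were those of Gpr183 (-0.91), Rgs10 (-1.33), Xcl1 (-2.03), Il18r1 (-1.80), Ifngr1 (-0.82), Pim1 (-1.30), Adgrg5 (-2.12) and Zfp36l1 (-0.75). The remaining negative ones were those of Fos (-1.08), Nfkbia (-0.77), Map3k8 (-1.89), Tmsb10 (-0.62), Vim (-1.02), Rps19 (-0.56) and Ahnak (-1.01). For genes with at most 1 count in CD-HFD CXCR6pos the fitted difference depends on the prior count and is no bound; it was negative for Tdrp (-4.71), Nt5e (-4.55), Ncf1 (-5.35), Ppfia4 (-5.44) and Ramp1 (-4.12). Without ND CXCR6pos replicate 6 and ND CXCR6neg replicate 4, 24 of the 42 still passed and 41 kept their sign.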

How the results depend on the processing

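The CD-HFD contrast gave 253 higher and 363 lower genes with DESeq2, 301 and 394 with its size factors, 254 and 407 with no filter, 279 and 334 in the 2 groups alone, 276 and 374 with the identical library kept, and 287 and 396 with library totals that leave out other cells' genes. Leaving out each CD-HFD liver library in turn gave 229 to 285 higher and 332 to 393 lower genes. The scores as covariates left 44 higher and 74 lower genes, against 16 and 23 without ND CXCR6pos replicate 6 and 19 and 55 with the pDC score less Pacsin1. The last 2 settings were chosen after the data were seen. The log2 fold change turned its sign, with all libraries, for Pacsin1 (0.77), Tcf4 (0.0057), Irf8 (1.21), Cd74 (0.55) and H2-Aa (0.44). Without ND CXCR6pos replicate 6 it turned for Pacsin1 (2.19), Irf8 (0.85) and Foxo1 (0.40). With the score less Pacsin1 it turned for Cox6a2 (0.57), Tcf4 (0.53), Irf8 (1.92), Ly6d (0.26), Rnase6 (0.75), Cd74 (1.28), H2-Ab1 (0.45), H2-Aa (1.06), Igkc (-0.11), Batf (-0.053) and Tnfrsf1b (-0.073). The cause was not tested.

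The 35 positive pDC slopes were 32 to 41 when each CD-HFD liver library was left out in turn, and 35 with a constant of 50 CPM. They were 46 with no filter (and 3 negative) and 2 without ND CXCR6pos replicate 6. No other ND or spleen library was left out singly for the slopes. The B cell slopes, 0 otherwise, were 5 with no filter. The diet difference gave 17 to 35 positive and 49 to 77 negative genes when each liver library was left out. The 17 was without CD-HFD CXCR6neg replicate 2. The diet difference gave 13 and 40 without ND CXCR6pos replicate 6 and ND CXCR6neg replicate 4, and 14 and 48 without ND CXCR6pos replicates 1 and 6. The ND contrast, with 0 higher and 2 lower genes, gave 0 to 17 and 0 to 41 when each ND liver library was left out, 17 and 41 being without ND CXCR6pos replicate 6. It gave 1 and 1 without ND CXCR6pos replicate 5, 5 and 4 without replicate 5 of ND CXCR6neg, 21 and 42 without ND CXCR6pos replicates 1 and 6, 0 and 0 with DESeq2's size factors and 3 and 5 with DESeq2. These ND settings were chosen after the data were seen.

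The fractions share replicate numbers in the labels. Over all tested genes, libraries of the same number had correlations of -0.008 to 0.029, and 2 of 5 CXCR6pos libraries were closest to their own number. The closest library of any number reached only 0.013 to 0.029, so these correlations cannot show whether numbers mark shared animals. In replicates 1 to 5, summed erythroid genes were at 10620, 6737, 3666, 3927 and 6632 CPM in CXCR6pos. They were at 7268, 6331, 1750, 1864 and 9060 CPM in CXCR6neg, in both fractions lowest in replicates 3 and 4. Replicates 1 to 5 gave 207 higher and 291 lower genes with the replicate block, against 214 and 283 without it. In CXCR6pos replicate 5, the shallowest CD-HFD library with 57168 counts, 1 count is 17.7 CPM, so genes near that level are not measured there.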

Other observations

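CXCR6pos libraries differed among themselves in genes of effector function, a pattern picked out after their values were seen and not tested. In the order of replicates 1 to 5, Gzma was at 461, 435, 1419, 1293 and 2139.8 CPM, Il10 at 53.2, 40.5, 255, 225 and 88.4 CPM and Fgl2 at 65, 70.9, 212, 167 and 248 CPM, each lowest in replicates 1 and 2. Tcrg-C2 was highest in those libraries, at 957, 948, 329.9, 349 and 159 CPM, as were Dusp2, at 927, 705, 286, 268 and 371 CPM, and Cd160, at 389.8, 361, 193, 188 and 248 CPM. Maf was at 207, 145, 461, 289 and 159 CPM, Pdcd1 at 508, 446, 566, 545 and 601 CPM and Gzmk at 1139.96, 975, 1071, 949 and 884 CPM in the same order.

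Ncf1 had 0 counts in CXCR6pos and 39 in CXCR6neg, Nt5e had 1 count in CXCR6pos and 39 in CXCR6neg and Tdrp had 1 count in CXCR6pos and 53 in CXCR6neg under CD-HFD. Their slopes on the pDC score were 0.03 ± 0.19, -0.19 ± 0.13 and 0.06 ± 0.12, and did not pass. Their ND contrasts, -0.90 ± 0.50, 0.08 ± 0.36 and -0.20 ± 0.31, did not pass either.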
